A study of Zea mays with 6 samples.

Results

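Trimethylation of lysine 4 on histone H3 (H3K4me3) was compared between the maturing zone and the base of the third leaf in maize of the inbred line B73, over all 32908 H3K4me3 regions of the deposited table, out of 76642 regions for the 2 marks of the series. Each region was described by the log2 ratio of its average normalized reads in the maturing zone to that in the base, without use of the authors' significance calls. Plants grew at 130 µmol photons m-2 s-1 with days of 16 h at 25 °C and nights of 8 h at 20 °C, and were sampled 13 to 14 days after sowing. For the maturing zone 4 cm were cut out of the lit part of the blade, at its middle. For the base, leaves were cut 0.5 cm above the soil and their bottom 1 to 2 cm, which no light reached, were taken. All groups were wild-type B73 without any transgene or added agent, and chromatin came from pools of 10 plants per replicate. The zones differ in cell age and in light together, and these cannot be told apart here. The table gives a single average per zone, so no spread stands beside an H3K4me3 value and none of these ratios was tested.

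H3K4me3 is placed by methyltransferases of the Trithorax (Set1/COMPASS) type and lies mainly over the first nucleosomes of genes that are transcribed. A grass leaf grows from a meristem at its base, so a cell of the blade has left division and expansion behind and has become a photosynthetic mesophyll or bundle sheath cell, or a cell of the epidermis or a vein. In whole tissue, fewer cells of a type and less of the mark per cell cannot be told apart.

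Relative to the authors' scaling, most regions had H3K4me3 signals within 2-fold in the zones. The scaling of the averages is unknown, so a difference in H3K4me3 shared by all regions could not show in the median or in the sums. The median log2 ratio was 0.011, with quartiles at -0.52 and 0.47, and 24030 regions lay within 2-fold. H3K4me3 was at least 2-fold higher in the maturing zone at 4039 regions, which is 12.3% of those measured, and at least 2-fold lower at 4839 regions, or 14.7%. Ratios reached from -7.83 to 8.49, and the extremes were balanced: 231 regions were at least 16-fold higher and 235 at least 16-fold lower. The summed signal was 8394259 normalized reads in the maturing zone and 8821972 in the base, a log2 ratio of -0.072. The median region had 190.5 normalized reads in the maturing zone and 192.2 in the base. Very low averages repeat in the table: 78 regions share the lowest base average of 1.5 and 12 share the lowest maturing zone average of 0.73, so the largest ratios have such a value as divisor or numerator and are imprecise.

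The spread of the ratios narrowed as the signal increased, as the plot of ratio against signal level shows. In the quintile of regions with the lowest signal, 23.1% were at least 2-fold higher, 23.1% at least 2-fold lower, and the standard deviation across regions was 1.72 on the log2 scale. In the quintile with the highest signal, 4.22% were higher and 7.78% lower, with a standard deviation of 0.72. The median stayed near 0 in all quintiles, between -0.078 in the highest and 0.075 in the middle one.

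**Figure D1:**
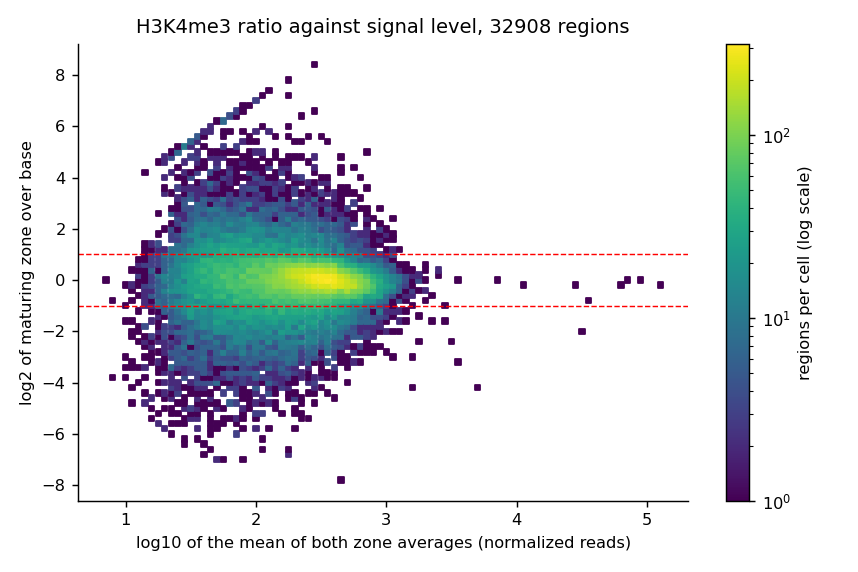
Each square is a cell of the plane of mean signal (x axis, log10 of the mean of both zone averages in normalized reads) and zone ratio (y axis, log2 of maturing zone over base), coloured on a log scale by the number of H3K4me3 regions in it. Red dashed lines mark 2-fold in either direction. The cloud is widest at low signal and narrows around 0 as signal increases. At the far right, 7 of the 22 regions with a mean above 2000 are at least 2-fold lower, down to -4.12. The straight upper edge holds the 78 regions with the lowest base average of 1.5.

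The zone labels held in the transcript libraries of the same series. The 5 blade markers, PEP carboxylase, PPDK, NADP-malic enzyme, PEPCK and the Rubisco small subunit, summed to 87541 and 133830 CPM (counts scaled to library size with TMM factors) in maturing zone libraries A and B, against 226.2 and 537.7 CPM in base A and B, and none was at 0 throughout. The 18 division markers (MCM helicase subunits, cyclins and core histones) summed to 236.5 and 155.9 CPM in the maturing zone and to 1215 and 1710 CPM in the base. Most of the maturing zone sum came from cyclin4, which had 199.2 and 96.2 CPM there and less in the base, 85.5 and 60.5 CPM. By edgeR's quasi-likelihood test at an adjusted p under 0.05, 16 of 18 were called lower, and cyclin4 was not called. By that test 13.5% of the 26787 genes tested were called higher in the maturing zone and 15.8% lower. Scaled by library totals in place of TMM, the split was 2548 higher to 8300 lower in place of 3605 to 4229, and the median difference moved by -1.14 on the log2 scale.

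The 10 largest gains among regions with a mean of at least 20 normalized reads lay next to 10 genes, all protein_coding. The largest was next to GRMZM2G137535, at chromosome 6, 142504263 to 142505103 in the B73 RefGen_v3 build, with 540.97 normalized reads in the maturing zone and 1.5 in the base. Its transcript had 65.3 and 68.4 CPM in maturing zone libraries A and B, and 0.082 and 0.152 CPM in base libraries A and B. Next came GRMZM2G055467 (350.05 in the maturing zone against 1.5 in the base), GRMZM2G106468 (240.33 in the maturing zone against 1.5 in the base) and GRMZM2G038512 (339.48 in the maturing zone against 2.26 in the base). These IDs carry no gene name in the files or in the reference table.

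A named gene among the 10 was GRMZM2G097457, listed as a cytosolic pyruvate, phosphate dikinase (CYPPDKZM2, also PPDK2), a second gene of the enzyme that regenerates PEP. Its region at chromosome 8, 106530147 to 106530940 had 188.33 normalized reads in the maturing zone and 1.5 in the base, and its transcript had 1873 and 1786 CPM in the maturing zone against 1.63 and 1.07 CPM in the base. The count of reads between this gene and the C4 PPDK gene may be uncertain, because the treatment of reads that fit both is not stated by the sources. All 8 of the 10 genes with enough reads to be tested were called higher (adjusted p 0.013 to 0.0164), and the 9 regions overlapping an H3K9ac region had H3K9ac log2 ratios of 2.47 to 4.96. The smallest of the 10 had a log2 ratio of 6.78, and the next one outside stood at 6.69.

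The 10 largest losses were led by the region next to GRMZM2G141386, at chromosome 1, 43770987 to 43771855, with 3.72 normalized reads in the maturing zone and 845.71 in the base. Its transcript had 0.124 and 2.27 CPM in the maturing zone and 63.1 and 322.6 CPM in the base (A and B each). Further losses lay next to GRMZM2G117281 (0.73 in the maturing zone against 97.90 in the base), GRMZM2G465595 (0.73 in the maturing zone against 94.42 in the base), GRMZM2G043489 (1.17 in the maturing zone against 149.31 in the base) and GRMZM2G370081 (0.95 in the maturing zone against 113.50 in the base). Of the 8 genes tested, 7 were called lower, while GRMZM2G465595 had 0.049 and 0.296 CPM in the maturing zone and 1.31 and 8.51 CPM in the base (adjusted p 0.0548). All 10 regions overlapped an H3K9ac region with a log2 ratio between -5.51 and -2.10. In length, 7 of these 10 regions were shorter than 780 bp, against 0 of the 10 largest gains. The smallest of these losses stood at -6.53 and the next one outside at -6.50.

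The 5 regions of highest signal were within 2-fold in the zones, and of the 22 with a mean above 2000 normalized reads 7 were at least 2-fold lower and 0 higher, with ratios from -4.12 to 0.53. The strongest, next to the transposable_element GRMZM2G121936, had 113462 normalized reads in the maturing zone and 126137 in the base, and the next, at GRMZM2G482770, had 82864 in the maturing zone and 88359 in the base. The other three of the top 5 lay next to GRMZM2G473646, GRMZM5G827217 and GRMZM2G351346, with log2 ratios of -0.03, -0.26 and -0.74. All 5 lacked an overlapping H3K9ac region and their next genes had at most 5 reads in any transcript library. Of the 22 regions, 16 lacked H3K9ac. The 10 strongest regions held 4.92% of all signal in the maturing zone and 5.86% in the base.

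Gene groups were set beside the background of 1 region per gene, that of highest mean signal, where 11.8% of 29826 genes were at least 2-fold higher and 13.3% at least 2-fold lower, with a median log2 ratio of 0.021. Among the enzymes and transporters of the C4 cycle, which concentrates CO2 around Rubisco, 4 of 11 genes with a region were at least 2-fold higher, 0 were lower, and the median was 0.35. Carbonic anhydrase (GRMZM2G121878), which turns CO2 into bicarbonate, had 230.81 normalized reads in the maturing zone and 20.14 in the base. PEPCK (GRMZM2G001696), a decarboxylase of the bundle sheath, had 98.74 in the maturing zone and 10.40 in the base, PEPC (GRMZM2G083841), the enzyme that makes the first C4 acid, had 123.05 in the maturing zone and 55.79 in the base, and PPDK (GRMZM2G306345) had 222.80 in the maturing zone and 102.52 in the base. NADP-ME (GRMZM2G085019), which releases CO2 in the bundle sheath, had 323.69 in the maturing zone and 226.36 in the base, within 2-fold. The plastid dicarboxylate transporter pDCT2 (GRMZM2G086258) had 334.76 normalized reads in the maturing zone and 614.19 in the base, a log2 ratio of -0.88, beside a transcript of 2078 and 997.9 CPM in the maturing zone and 42.9 and 39.2 CPM in the base.

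The transcripts of these genes differed far more than their H3K4me3. PEPC had 9504 and 13901 CPM in maturing zone libraries A and B and 8.33 and 9.21 CPM in the base, with an H3K4me3 log2 ratio of 1.14. NADP-ME had 18596 and 15798 CPM in the maturing zone against 19.5 and 4.15 CPM in the base, with an H3K4me3 log2 ratio of 0.52. Of the 11 C4 genes tested, 9 transcripts were called higher and 0 lower.

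In the photosystem and light harvesting list 4 of 11 genes were at least 2-fold higher and 0 lower, with a median of 0.47. The largest ratio, 1.22, belonged to lhcb4 (GRMZM2G103101), an inner antenna protein of photosystem II, with 543.29 normalized reads in the maturing zone and 232.96 in the base. The lowest, -0.58, belonged to cab-m1 (GRMZM2G351977), a chlorophyll-binding antenna protein. Of the 4 Calvin cycle genes with a region, RCA1 (GRMZM2G162200), Rubisco activase, had 771.30 in the maturing zone and 356.12 in the base, whereas the Rubisco small subunit gene RBCS1 (GRMZM2G098520) had 263.06 in the maturing zone and 335.76 in the base. All 4 Calvin cycle transcripts were called higher. Of the regulators, GLK1 (GRMZM2G026833), a transcription factor for chloroplast development, had 777.58 in the maturing zone and 320.72 in the base, its relative G2 (GRMZM2G087804) had 435.43 in the maturing zone and 264.27 in the base, and SCR (GRMZM2G131516), a patterning factor of the tissue around veins, had 38.28 in the maturing zone and 128.31 in the base.

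H3K4me3 was lower in the maturing zone at many genes of division. In the list of cell cycle and DNA replication 13 of 33 genes were at least 2-fold lower and 1 higher, with a median of -0.83. MCM7 (GRMZM2G065205), a subunit of the replicative helicase, had 22.33 normalized reads in the maturing zone and 321.04 in the base. The cyclin gene cyc3 (GRMZM2G073671) had 17.57 in the maturing zone and 242.74 in the base, cyclin8 (GRMZM2G138886) had 31.91 in the maturing zone and 244.36 in the base, and wee1 (GRMZM5G878541), a kinase that holds back mitosis, had 88.10 in the maturing zone and 493.45 in the base. The 1 higher gene was RNRL1 (GRMZM2G304378), listed as a ribonucleotide reductase subunit, with 83.68 in the maturing zone and 25.17 in the base, and it had 0 reads in every transcript library. The others stayed within 2-fold at their strongest region, and 22 of the 33 genes were below 0. Both genes of the centromeric histone cenH3 (-0.13 and 0.17) and the cohesin subunit gene SMC3 (-0.11) were near 0. PCNA (-0.95) and cycD1 (-0.96) lay just inside the limit. The gene cyclin4 (GRMZM2G310115) had 0.35 at its strongest region, but -3.01, -3.81 and -4.96 at its weaker ones. The strongest region ended at 170943418 on chromosome 8, and the weaker ones began only at 170958877, so their assignment to this gene is less certain. The cyclin4 transcript had 199.2 and 96.2 CPM in the maturing zone and 85.5 and 60.5 CPM in the base, and was not called.

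Core histone genes were lower at 3 of 6. The H4 genes named H4C13 had 18.10 in the maturing zone against 222.71 in the base at GRMZM2G149178, 19.97 in the maturing zone against 189.07 in the base at GRMZM2G084195, and 237.22 in the maturing zone against 295.87 in the base at GRMZM2G181153. All 6 transcripts were called lower. That of GRMZM2G181153 had 1.16 and 3.75 CPM in the maturing zone and 65.8 and 165.4 CPM in the base. A second, weaker region of this gene had 14.81 normalized reads in the maturing zone and 103.60 in the base. Reads of near-identical histone copies may have been divided between them. Tubulins, the units of microtubules, were lower at 8 of 11 genes (median -1.62), with TUB1 (GRMZM2G164696) at 107.71 in the maturing zone and 1057.26 in the base. Kinesins, motors on microtubules, were lower at 6 of 11 (median -1.39), with kin11 (GRMZM2G436981) at 42.50 in the maturing zone and 350.93 in the base.

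Ribosomal protein genes had similar H3K4me3 in the zones at their strongest regions, beside lower transcripts in the maturing zone. Of 34 genes in that list, which was drawn by symbol and may hold plastid members, 0 were past 2-fold at their strongest region. The ratios there lay between -0.91 at arpp2a-2 (GRMZM2G102891) and 0.66 at rpl29 (GRMZM2G028216), with a median of -0.20 and 27 of 34 below 0. A weaker region of RPL19 (GRMZM5G887054) had 22.29 normalized reads in the maturing zone and 113.20 in the base, a log2 ratio of -2.34. Of 32 transcripts tested, 23 were called lower and 1 higher. Scaling by library totals moves transcript differences further down, by the shift given above.

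Genes of the cell wall differed in both directions. Of 28 genes, 11 were at least 2-fold lower and 5 higher. The beta-expansin genes expB8 (GRMZM2G013002) and expB3 (GRMZM2G474194), whose products loosen walls, had 11.33 and 5.13 normalized reads in the maturing zone, against 424.10 and 172.01 in the base. By contrast, xet1 (GRMZM2G026980), a xyloglucan-cutting enzyme, had 424.75 in the maturing zone and 5.33 in the base, and its transcript had 41.9 and 94.6 CPM in the maturing zone against 0.15 and 0.03 CPM in the base. The laccase gene LAC1 (GRMZM5G842071), of a family that polymerizes lignin, had 499.73 in the maturing zone and 62.18 in the base. Of the cellulose synthase genes, CesA-3 and CesA-9 were past 2-fold (-1.13 for CesA-3) and the others were not. In the list of wax and epidermis, gl1 (GRMZM2G114642), which acts in wax synthesis, had 508.41 in the maturing zone and 37.70 in the base, and LTP3 (GRMZM2G126397), a lipid transfer protein, had 50.94 in the maturing zone and 178.65 in the base.

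Among genes of the meristem and of leaf shape, 7 of 25 were at least 2-fold lower and 3 higher. The lower ones included 5 growth-regulating factor (GRF) genes, transcription factors that keep leaf cells proliferating. Among these, GRF9 (GRMZM5G893117) had 79.30 in the maturing zone and 590.28 in the base. The other GRF genes with a region lay within 2-fold at their strongest region, among them GRF2 (0.66), GRF4 (0.38), GRF10 (-0.15) and GRF8 (-0.56). At weaker regions, GRF10 (GRMZM2G096709) had -2.10 and GRF5 (GRMZM2G129147) -1.83, whereas GRF6 (GRMZM2G041223) had -0.39. The ligule gene lg1 (GRMZM2G036297) had 33.63 in the maturing zone and 153.29 in the base. In contrast, lg2 (GRMZM2G060216), also needed for the ligule, had 207.09 in the maturing zone and 68.82 in the base. The other higher genes were gnarley1 (GRMZM2G452178), 68.50 in the maturing zone against 30.31 in the base, and lg4 (GRMZM2G094241), 92.35 against 42.13. Neither region overlapped an H3K9ac region. Enzymes that modify histones were mostly alike: 17 of 19 lay within 2-fold, and the 2 lower ones were hda106 (GRMZM2G057044), 6.65 in the maturing zone against 37.83 in the base, and HDT1 (GRMZM2G159032), 50.17 in the maturing zone against 176.82 in the base, both of them listed as histone deacetylases. The vascular list held 3 sucrose transporter genes, of which sut2 and sut4 had a region, with log2 ratios of -0.24 and -0.67. sut1 (GRMZM2G034302) had no H3K4me3 region, and its transcript had 991.5 and 2143 CPM in the maturing zone and 7.94 and 26.1 CPM in the base (adjusted p 0.0172, edgeR).

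**Figure D2:**
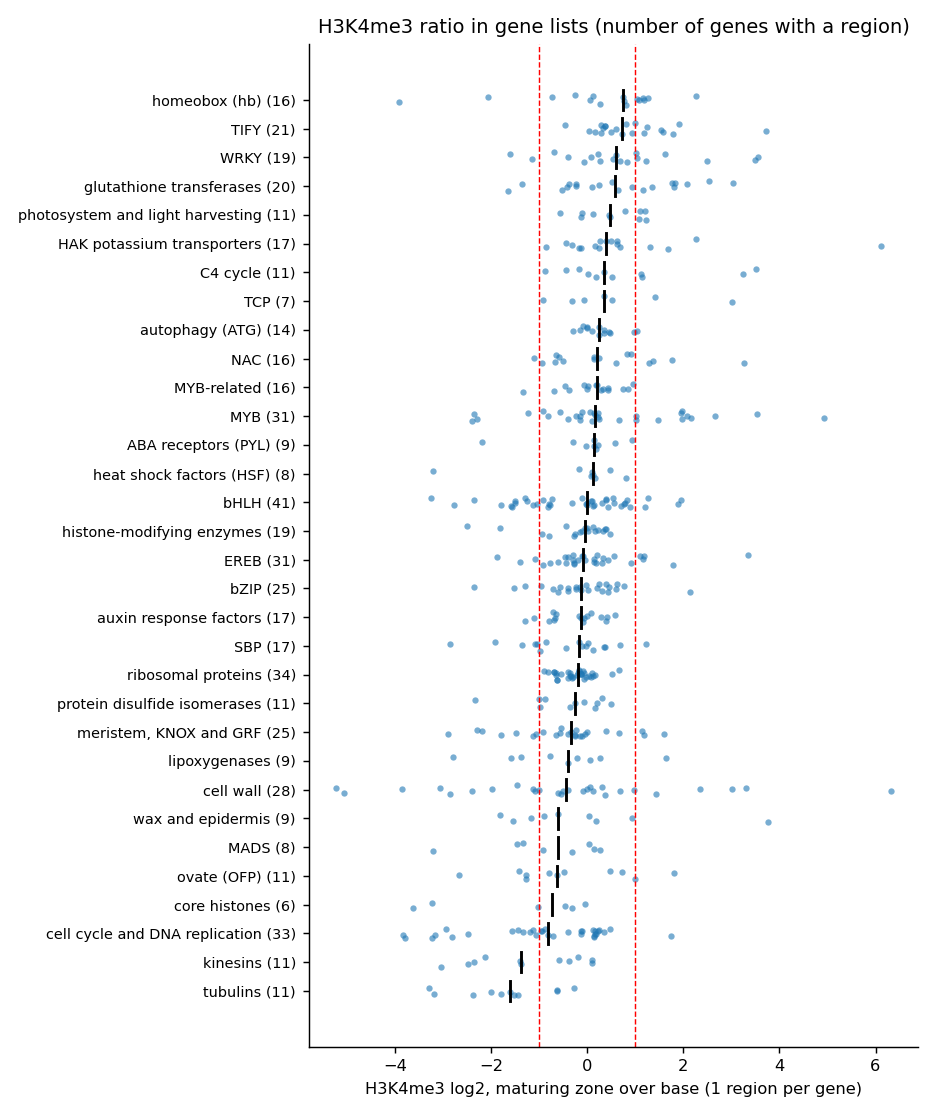
Points are genes, placed by the H3K4me3 log2 ratio of maturing zone over base at their region of highest mean signal (x axis), black bars are list medians, and red dashed lines mark 2-fold. The 32 lists with at least 6 genes are ordered by median, from tubulins (-1.62) at the bottom to homeobox genes (0.75) at the top, and ribosomal proteins all lie between the dashed lines.

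Regulatory and stress-related families differed in the balance of their ratios. Of 21 TIFY genes, a family that holds the repressors of jasmonate signalling, 7 were at least 2-fold higher, 0 were lower and 20 were above 0. TIFY15 (GRMZM2G005954) had 639.27 in the maturing zone and 48.29 in the base. WRKY factors, many of them tied to defence and ageing, were higher at 7 of 19 and lower at 2, with WRKY43 (GRMZM2G148087) at 270.61 in the maturing zone and 22.98 in the base and WRKY29 (GRMZM2G040298) at 589.82 in the maturing zone and 52.72 in the base. Glutathione transferases, which detoxify, were higher at 8 of 20 and lower at 2. MYB factors were higher at 11 of 31 and lower at 4, homeobox factors higher at 6 of 16 and lower at 2. The bHLH factors had the opposite balance, lower at 12 of 41 and higher at 4, as did SBP factors, lower at 5 of 17 and higher at 1, and OFP (ovate) proteins, lower at 4 of 11 and higher at 1. HAK potassium transporters were higher at 4 of 17 and lower at 0, and HAK27 (GRMZM2G455817) had 104.17 in the maturing zone and 1.5 in the base.

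Where a gene had several regions, a larger share of the weaker ones than of the strongest was past 2-fold. The table assigned 1 region to 27190 genes and 2 to 5 regions to 2632 genes. In genes with 2 to 5 regions, the region of highest mean signal was at least 2-fold higher in 13.2% and lower in 19.6%, while of the 2890 other regions 17.7% were higher and 29.2% lower. Their median mean signal was also lower, 67.5 normalized reads against 236.8 for the strongest region, so that the wider spread at low signal applies to them. PPDK shows the arrangement over 3 regions on chromosome 6: 146185478 to 146186392 had 135.16 normalized reads in the maturing zone and 1.5 in the base, 146187150 to 146187998 had 114.16 in the maturing zone and 2.23 in the base, and 146188941 to 146189975 had 222.80 in the maturing zone and 102.52 in the base. RCA1 had 94.03 in the maturing zone and 4.56 in the base at its weaker region, a log2 ratio of 4.37, against 1.11 at the stronger. PRK, phosphoribulokinase (GRMZM2G026024), had 150.39 in the maturing zone and 30.18 in the base at its weaker region. The log2 ratio there was 2.32, against 0.38 at the stronger. Carbonic anhydrase (GRMZM2G121878) had the reverse order, with a log2 ratio of 3.52 at its stronger region and 0.18 at the weaker.

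Losses also differed between regions of a gene. RS2 (GRMZM2G403620), a MYB factor that keeps KNOX genes silent in leaves, had log2 ratios of -0.92, -5.45 and -4.33 along its 3 regions, the first being the strongest. GRF1 (GRMZM2G178261) had -0.66 at its strongest region, -2.86 at the next and -0.42 at the weakest. At the cyclin gene cycD4 (GRMZM2G133413) the stronger region had the larger loss, -3.23 against -1.62 at the weaker. MCM6 (GRMZM2G021069) had 0.73 in the maturing zone and 54.21 in the base at one region and 19.84 in the maturing zone and 179.92 in the base at the other. Of the 2632 genes, 695 had a region at least 2-fold higher, and in 299 of these the strongest region lay within 2-fold. Likewise 987 had a region at least 2-fold lower, and in 430 of them the strongest region lay within 2-fold. Regions past 2-fold in both directions occurred in 95 genes.

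The genes whose regions differed most included GRMZM2G326270 on chromosome 7, with 462.52 normalized reads in the maturing zone and 10.98 in the base at 171086005 to 171087547, and 5.18 in the maturing zone and 46.19 in the base at 171091011 to 171091509. At AC218972.3_FG004 on chromosome 8, the region at 170198115 to 170198920 had 185.99 in the maturing zone and 16.20 in the base and that at 170202032 to 170202818 had 7.16 in the maturing zone and 131.95 in the base. The transcript of GRMZM2G326270 had 1105 and 1492 CPM in the maturing zone and 2.50 and 2.99 CPM in the base, and that of AC218972.3_FG004 had 0.815 and 1.28 CPM in the maturing zone and 69.6 and 57.5 CPM in the base. Neighbouring regions with the same next gene and a gap under 1000 bp had similar ratios (Pearson's r = 0.63 over 1356 pairs, a description only). For gaps of 1000 to 3000 bp r was 0.29, and for 3000 to 10000 bp 0.095. With different next genes r was 0.45 under 1000 bp (789 pairs) and at most 0.085 beyond. Close regions can share reads and sequence.

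On chromosome 5 the next-gene labels are less specific. GRMZM2G351716 is the next gene of 55 regions between 5553665 and 6809394, GRMZM2G005201 of 50 between 6826782 and 8062945, GRMZM2G120981 of 19 and GRMZM2G074205 of 13. Ratios at GRMZM2G351716 ran from -5.06 to 6.39. The sources do not say how a next gene was assigned. In the comparison with transcripts each of these 4 labels counts as 1 gene, with its strongest region.

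Region length went with the direction of the ratio. Lengths had a sharp mode, with 15554 regions of 780 bp to under 820 bp. In coarse length classes the median was -2.09 for the 120 regions under 500 bp, 0.018 for 500 to under 1000 bp, -0.019 for 1000 to under 2000 bp and 0.17 for the 137 of 2000 bp and over. A finer division, chosen after the values were seen, gave -2.16 for 658 regions under 580 bp, -0.74 for 3251 regions of 580 to under 780 bp and 0.098 at the mode. Of the 235 regions at least 16-fold lower in the maturing zone, 187 were shorter than 780 bp, whereas 0 of the 231 at least 16-fold higher were. Short regions were also weak, with medians of 16.1 normalized reads in the maturing zone and 66.2 in the base under 580 bp. Within the lowest quintile of signal, regions under 780 bp had a median of -0.78 and longer ones 0.59.

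The dependence on length ran the other way for H3K9ac, measured in the same zones. Its 4924 regions under 580 bp had a median log2 ratio of 1.57, and the longer ones -0.083. At the short H3K4me3 regions other readouts had the same sign: under 580 bp the overlapping H3K9ac regions had a median of -1.87 and the transcripts of the next genes a median of -1.82 (log2 of CPM plus 0.5, mean of libraries A and B). The sources do not say how the authors set region boundaries in each mark, and its part in this pattern was not tested. The longest regions, next to GRMZM2G342564 (3340 bp), GRMZM2G059392 (3217 bp) and AC200753.3_FG003 (3177 bp), had log2 ratios of 0.26, 1.66 and -0.63.

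**Figure D3:**
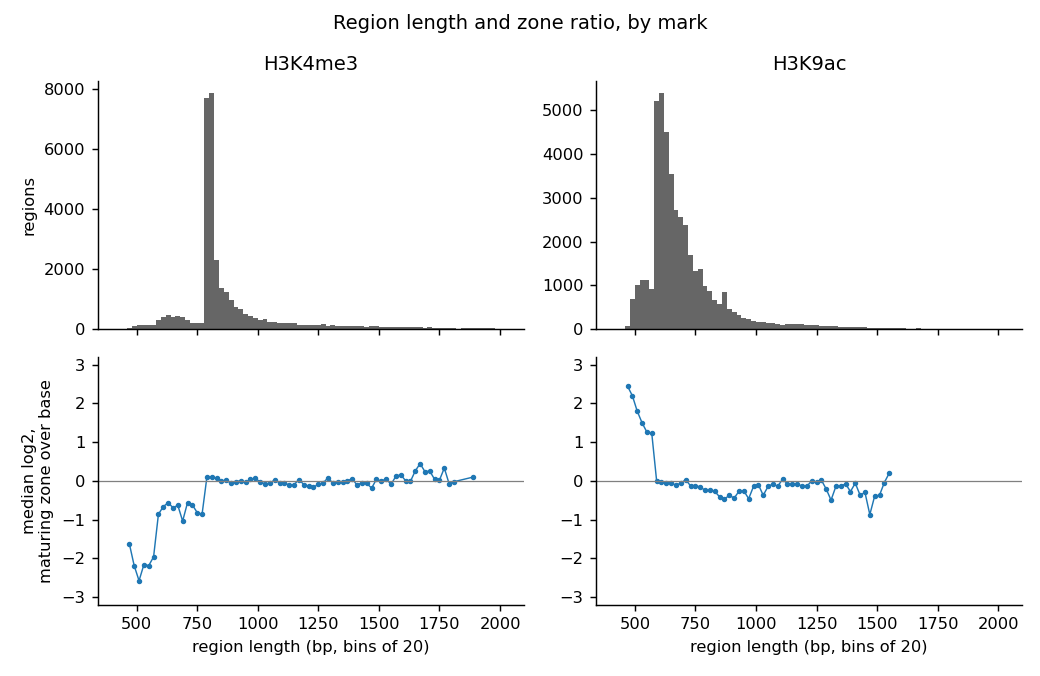
Upper panels give the number of regions per 20 bp of region length (x axis, bp, up to 2000) for H3K4me3 on the left and H3K9ac on the right. Lower panels give the median log2 ratio of maturing zone over base in each bin with at least 20 regions. Short H3K4me3 regions lie below 0 and short H3K9ac regions above 0, while beyond the H3K4me3 mode H3K4me3 medians scatter around 0 and H3K9ac medians reach down to -0.87, in a bin of 30 regions.

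Chromosomes differed little. Medians ran from -0.018 on chromosome 5 to 0.031 on chromosome 10, the share at least 2-fold higher from 11.1% to 13.1%, and the share at least 2-fold lower from 14.1% to 15.4%. Along the chromosomes the ratio was higher in the middle than near the ends. By deciles of the length up to the last region, the median was -0.045 in decile 1, 0.17 in decile 5 and -0.073 in decile 10. Between the middle part (25 to 75% of the length) and the outer part, a division chosen after seeing the deciles, medians were 0.065 and -0.019, and the middle stood above the outer part in 9 of 10 chromosomes, by up to 0.16, with chromosome 4 at -0.00072. Regions at least 2-fold higher made up 13.6% of the middle and 11.5% of the outer part, and regions at least 2-fold lower 13.0% and 15.6%.

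The gradient was larger among weak regions than among strong ones. The difference between middle and outer part was 0.20 in the lowest quintile of signal and 0.040 in the highest, and 0.052 among regions next to protein_coding genes. Over all H3K9ac regions the middle was also above the outer part in 9 of 10 chromosomes, while for transcripts of the next genes this held in 5 of 10. Among regions under 780 bp the difference was 0.30, with medians of -0.79 in the middle and -1.09 in the outer part. These differences are small beside the quartiles of the ratio.

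**Figure D4:**
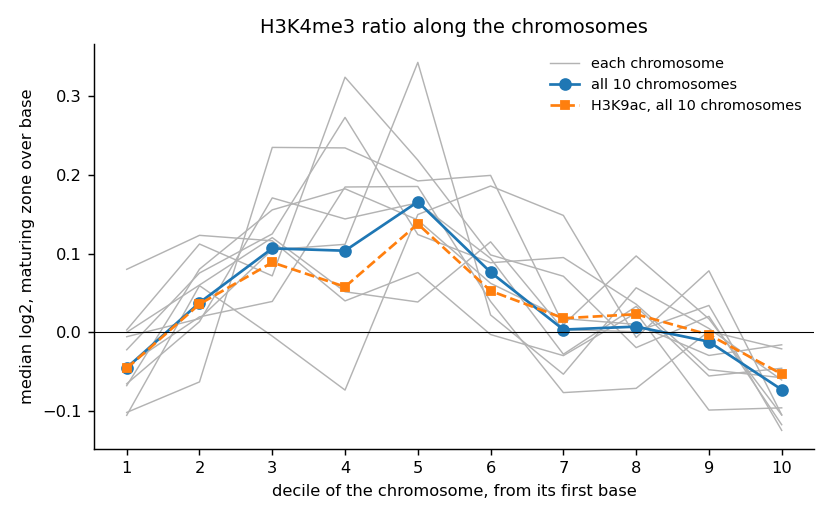
The median log2 ratio of maturing zone over base (y axis) is drawn for each decile of a chromosome (x axis, 1 to 10 from its first base), for H3K4me3 on each chromosome (grey), for H3K4me3 on all 10 (blue circles) and for H3K9ac on all 10 (orange squares). Both marks peak in decile 5 and are lowest in the last one.

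The annotation class of the next gene made little difference. The median was 0.00 for 25499 regions next to protein_coding genes, 0.043 for 5428 next to low_confidence genes and 0.051 for 1882 next to transposable_element genes. Signal was lower in the last class, with a median of 103.2 normalized reads in the maturing zone and 94.4 in the base, against 215.7 in the maturing zone and 218.1 in the base in the protein_coding class. The share at least 2-fold higher was 15.2% next to transposable elements and 11.6% next to protein_coding genes.

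Of the 40 regions next to microRNA genes, 9 were at least 2-fold higher (22.5%, against 12.3% of all regions). At least 2-fold lower were 7 (17.5%, against 14.7% of all regions). The genes named here were picked after their values were seen. zma-MIR827, whose relative in Arabidopsis acts in phosphate balance, had 66.08 normalized reads in the maturing zone and 8.40 in the base. zma-MIR167e, of a family that targets auxin response factors, had 43.94 in the maturing zone and 8.90 in the base. On the other side zma-MIR166j, of a family that targets HD-ZIP III leaf polarity genes, had 3.13 in the maturing zone and 28.93 in the base, and zma-MIR171c had 0.73 in the maturing zone and 20.80 in the base. zma-MIR396c, of the family that targets growth-regulating factors, had 23.31 in the maturing zone and 62.54 in the base at one region and 213.22 in the maturing zone and 315.06 in the base at another. Within a family ratios could differ: zma-MIR171m had 39.47 in the maturing zone and 18.98 in the base. Smaller ratios were found at zma-MIR169b, with 146.61 in the maturing zone and 83.18 in the base, and at zma-MIR168b, with 375.81 in the maturing zone and 378.60 in the base. Most of these regions are weak, and their mature transcripts were not measured here.

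H3K4me3 and H3K9ac mostly differed between the zones in the same direction. An H3K9ac region overlapped 29851 H3K4me3 regions (90.7%) by at least 1 base, and across them the log2 ratios had Pearson's r = 0.78 and Spearman's rho = 0.71, as a description, since zones and leaves are shared. Over all 43734 H3K9ac regions 19.7% were at least 2-fold higher and 20% lower. Where H3K4me3 was at least 2-fold higher, H3K9ac was too at 2276 of 3586 regions and was at least 2-fold lower at 27. Where H3K4me3 was at least 2-fold lower, H3K9ac was too at 3368 of 4163 and was higher at 14. H3K9ac also differed where H3K4me3 did not: at 22102 regions with H3K4me3 within 2-fold, it was at least 2-fold higher at 1105 and lower at 2609. The 3057 H3K4me3 regions without H3K9ac were weaker, with a median mean signal of 56.7 against 220.0 normalized reads. Of them 22.1% were at least 2-fold lower and 14.8% at least 2-fold higher, against 14.7% and 12.3% of all H3K4me3 regions. Shorter than 780 bp were 35.6% of them, against 9.45% of the regions with H3K9ac.

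Transcript differences increased step by step with the H3K4me3 ratio of their gene. Of the 20959 genes with a region and enough reads, 13.4% were called higher in the maturing zone and 17.1% lower. Of 2039 tested genes with H3K4me3 at least 2-fold higher, 1264 were called higher (62.0%) and 17 lower; without base library A the 17 became 28. Of 2778 tested genes with H3K4me3 at least 2-fold lower, 1800 were called lower (64.8%) and 33 higher. Of 16142 tested genes within 2-fold, 9.34% were called higher and 10.9% lower. At ratios of 4 and above on the log2 scale, 119 of 128 transcripts were called higher and 0 lower, and at -4 and below 87 of 97 were called lower and 1 higher. Libraries A and B were pools of 6 plants each, and the steps held within libraries A and within libraries B. Across 20959 genes Spearman's rho between the ratios was 0.70, and genes are not independent replicates.

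From the transcript side, many called genes had H3K4me3 within 2-fold. Of 2804 genes called higher with a region, 1264 (45.1%) had H3K4me3 at least 2-fold higher, and of 3584 called lower, 1800 (50.2%) had it at least 2-fold lower. A fitted transcript difference of at least 256-fold upward was found for 480 called genes. Of these, 338 had a region, and H3K4me3 was at least 2-fold higher in 306. At least 256-fold downward were 287 called genes, of which 204 had a region and 169 had H3K4me3 at least 2-fold lower. A difference of that size depends on the prior count where a zone had 0 reads. Of genes with H3K4me3 at least 2-fold lower, 1318 had a region under 780 bp, of which 55.8% could be tested and 446 were called lower (60.6% of those tested). At 780 bp and over there were 2636, of which 77.5% could be tested and 1354 were called lower (66.3%). The difference between these shares was not tested. The share of genes with enough reads to be tested was 58.1% of 3509 with H3K4me3 higher, 70.3% of 3954 with H3K4me3 lower and 72.2% within 2-fold.

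**Figure D5:**
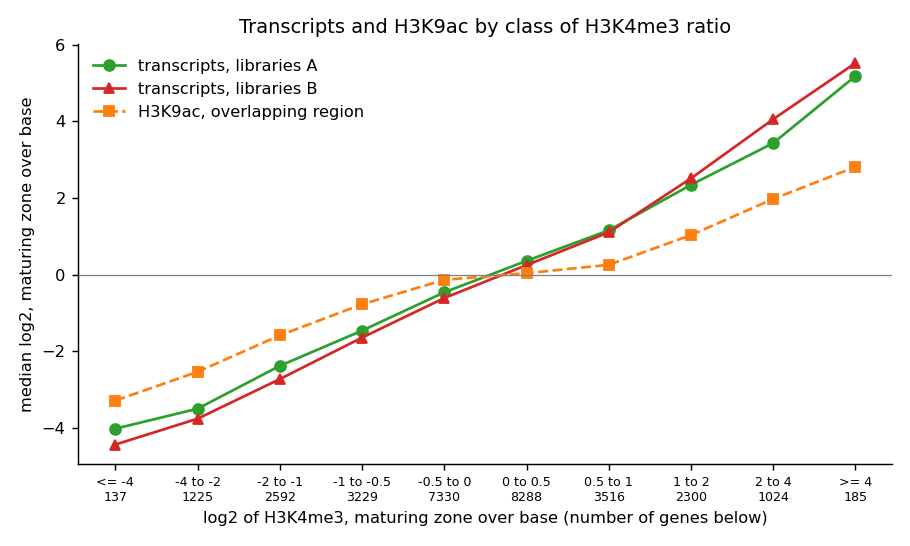
The median log2 ratio of maturing zone over base (y axis) is plotted by class of the H3K4me3 log2 ratio (x axis, with the number of genes in each class) for transcripts in libraries A (green), transcripts in libraries B (red; both log2 of CPM plus 0.5) and the overlapping H3K9ac region (orange). All lines climb from class to class, the transcripts from -4.03 and -4.44 to 5.18 and 5.52, and H3K9ac from -3.29 to 2.81.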

How the data were processed

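Per the submitters' processing notes the build was B73 RefGen_v3 and the tools included DiffBind 1.10.0, edgeR, CASAVA 1.8.2 and Trimmomatic 0.32, without roles. The sources used here do not give the aligner, the peak caller, the number and depth of ChIP replicates or the scaling of the averages. The ChIP tables hold, per the file headers, the authors' average normalized read signal per zone and region, with a deposited FDR-corrected p-value that was not used. The transcript table holds read counts over exons for 2 libraries per zone, per the file headers, with 18325106 to 50657759 exon reads per library.

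Log2 ratios were taken without a pseudocount, and region length as end minus start. Overlaps came from bedtools 2.31.1. For transcripts, edgeR 4.0.16 (R 4.3.3) was used (filterByExpr with a minimum count of 10, TMM scaling, quasi-likelihood fit without covariates, Benjamini-Hochberg adjustment, threshold 0.05), after a test on simulated data. Labels describe pools of plants, without saying whether A and B mark the same pools in both zones. The fit had no term for the letter. Any difference between A and B that both zones share therefore counted as spread in its p-values. The A minus B difference correlated between the zones with r = 0.803.

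Named regions are the 10 highest and 10 lowest ratios with a mean of at least 20 normalized reads, the 5 strongest, the 3 longest, the extremes of each gene list and genes with the most or the most different regions; the microRNA genes are an addition made after seeing values. Lists, and the gene families added to them after seeing values, were built from symbols in a RefSeq table of assembly Zm-B73-REFERENCE-NAM-5.0, which matched 15115 of 29826 next-gene IDs. The members and lists were chosen with earlier results of these data known. Alternatives covered pseudocounts, a signal minimum, centring, other folds, 1 region per gene, other overlaps, other transcript scalings, filters and tools, a replicate block and each RNA library left out.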

Additional observations from a re-analysis of the deposited data

How the results depend on the processing

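The median H3K4me3 log2 ratio was 0 by construction when centred, 0.021 with 1 region per next gene, 0.083 with both zones scaled to the same sum and 0.067 over regions of 780 bp and over, a limit chosen after seeing the data. Without shorter regions 2943 regions were at least 2-fold lower. At folds of 1.5, 3 and 4 the regions higher numbered 6875, 2170 and 1392, and those lower 7590, 2693 and 1803. Genes with H3K4me3 and transcript both higher numbered 1071 to 1422 without each RNA library in turn, and those with both lower 1335 to 1842. The letters of RNA libraries are not stated to mark shared pools. With a replicate block 9543 transcripts were called higher and 10820 lower in place of 3605 and 4229. Of those with a region, 1831 of 7440 (24.6%) were higher and 2514 of 8887 (28.3%) lower in both, in place of 45.1% and 50.2%. Called genes with H3K4me3 within 2-fold or the other way were thus more frequent than without the block. Over the other transcript settings the shares higher and lower in both ran from 39.1% to 58.8% and from 35.0% to 63.0%. The transcript difference A minus B correlated between the zones with r = 0.803 across 26787 genes. Without each RNA library in turn 2624 to 3666 transcripts were called higher and 2584 to 3984 lower. All other alternatives left the counts of genes higher or lower in both within 1.5 times, and the H3K9ac correlation within 0.05. Genes with H3K4me3 higher and transcript lower numbered 60 by library totals, 40 without a count filter, 76 with the block and 28 by DESeq2, in place of 17, and the reverse kind 104 with the block, 52 by DESeq2 and 20 by library totals in place of 33. Taking the signal level from the maturing zone alone gave a median of -0.73 in its lowest quintile, and from the base alone 0.67. Counting all regions of a gene gave 7 C4 regions at least 2-fold higher in place of 4. Counts in other lists moved too. Regions at least 2-fold lower numbered 12 in place of 7 for meristem, KNOX and GRF, and 5 in place of 3 for core histones. They numbered 8 in place of 3 for lipoxygenases, and 1 in place of 0 for ribosomal proteins. ChIP precision is limited by averages without replicates or depth.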

Other observations

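Further families, by symbol and with 1 region per gene, had these balances, given as values. Over all 29826 genes 11.8% were at least 2-fold higher and 13.3% at least 2-fold lower. The families are small, and no balance was tested against these shares. NAC factors were at least 2-fold higher in the maturing zone at 4 of 16 genes and lower at 1, with NAC40 (GRMZM5G898290) at 523.69 normalized reads in the maturing zone and 54.63 in the base. TCP factors were higher at 2 of 7 and lower at 0, with TCP7 (GRMZM2G035944) at 145.79 in the maturing zone and 18.03 in the base. EREB factors were higher at 5 of 31 and lower at 3, and bZIP factors higher at 1 of 25 and lower at 3. MADS factors were lower at 3 of 8 and higher at 0, with MADS34 (GRMZM2G137510) at 5.77 in the maturing zone and 53.67 in the base. Lipoxygenases were lower at 3 of 9 and higher at 1, and auxin response factors lower at 2 of 17 and higher at 0. MYB-related genes (16), heat shock factors (8), protein disulfide isomerases (11), abscisic acid receptors of the PYL family (9) and YABBY factors (3) each had 1 gene lower and 0 higher, and HSF2 (GRMZM2G088242) had 105.45 in the maturing zone and 983.99 in the base. Of 14 autophagy genes 1 was higher and 0 lower, and both ZCN genes with a region lay within 2-fold.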
